A study of Homo sapiens with 6 samples.

Results

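The dual-specificity MAP kinase phosphatases described here are 10 genes, DUSP1, DUSP2, DUSP4, DUSP5, DUSP6, DUSP7, DUSP8, DUSP10, DUSP14 and DUSP16, taken by name from the 61267 genes of the deposited count table. RNA-seq counts for them came from THP-1, an established line of human monocytic leukemia, in 3 libraries labelled KD and 3 labelled NC. Cells of both groups had been treated for 48 h with PMA, a phorbol ester used to turn these cells macrophage-like, at 100 ng/ml. The series title names METTL1 and macrophages in acute inflammation, and the labels name neither the target of KD nor the reagent behind KD or NC. The labels do not state whether the 3 samples within KD or within NC were separate cultures. The p-values therefore reflect only how far these samples differ, and that may be technical.

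MAP kinases (ERK, JNK and p38) are switched on when a MAP2 kinase phosphorylates a threonine and a tyrosine in their activation loop, and the phosphatases of this family switch them off by removing both phosphates. Many of the genes are themselves induced by the kinases that their products inactivate, which makes them feedback regulators. PMA activates protein kinase C, which feeds into the RAF, MEK and ERK cascade, and in macrophages these phosphatases are known for limiting cytokine production.

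Library totals ran from 37628972 to 42970216 counts. METTL1 held 567, 528 and 524 counts in the KD libraries and 596, 653 and 642 in the NC libraries, and its log2 fold change, KD over NC, of -0.11 (SE 0.076) missed the threshold with an edgeR adjusted p of 0.216. All 60 leukocyte markers of a list, chosen with earlier results of these data known, were detected in both groups. Their summed level was 10800 to 11000 CPM (counts scaled to library size by TMM) in KD and 4180 to 4410 CPM in NC. Of the 60, 57 were higher, 0 lower and 3 did not pass, beside 36.2% higher and 40.3% lower among all tested genes. The 3 most abundant per length were LCP1 at 2480 CPM in KD and 913 CPM in NC, ARHGAP30 at 2130 CPM in KD and 785 CPM in NC, and HCLS1 at 982 CPM in KD and 374 CPM in NC. A list of 24 markers of other cell types, called neuronal and epithelial here, also holds ACTA2 and COL1A1. Its sum was 50.6 to 54.9 CPM in KD and 2220 to 2620 CPM in NC, with 16 of 20 tested lower and 2 higher. NEFM was at 0.389 CPM in KD and 1590 CPM in NC. DSP was at 3.42 CPM in KD and 389 CPM in NC, and KRT18 at 2.25 CPM in KD and 46.2 CPM in NC. ELAVL4 went the other way, at 1.52 CPM in KD and 0.278 CPM in NC (log2 fold change 2.43). TUBB3 did not pass, at 5.04 CPM in KD and 5.30 CPM in NC. ELAVL4 and TUBB3 were picked after their values were seen. Of the 24, 4 had 0 counts in all 3 KD libraries, and they are named here after their values were seen. LIN28B held 3783, 3399 and 3910 counts in NC and SOX2 held 136, 110 and 158, whereas STMN2 (0, 8 and 0) and GRHL2 (2, 0 and 0) were barely detected in NC as well and were not tested. Most of these markers differed between the same KD and NC libraries from which every difference given here comes. Their part in those differences was not tested, and in bulk RNA fewer cells of a type and less RNA per cell cannot be told apart.

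All 10 phosphatase genes were detected in every library, and their levels per length spanned a wide range. On the scale of CPM per kilobase of exon, DUSP6, the cytoplasmic ERK phosphatase, had the highest level, 137 ± 3.90 in KD and 53.9 ± 2.51 in NC (mean ± SD, n = 3 each). DUSP1, the immediate-early phosphatase, followed at 68.1 ± 12.2 in KD and 26.4 ± 3.41 in NC. DUSP5 was at 24.7 in KD and 10.8 in NC, DUSP10 at 19.5 in KD and 8.07 in NC, and DUSP4 at 13.8 in KD and 5.10 in NC. With reads that an antisense gene may share kept in DUSP6, the order of these 5 genes was the same in both groups. No neighbours among them then overlapped within a group. The first place of DUSP6 depends on those reads, as given below, and the order without them was not worked out. The other 5 stayed below 5 CPM per kilobase in every library. In KD they ran from DUSP2 (4.09) through DUSP7 (3.18), DUSP14 (2.14) and DUSP16 (1.77) to DUSP8 (0.718), and the libraries of DUSP14 (1.82 to 2.44) and DUSP16 (1.72 to 1.83) overlapped. In NC the order was DUSP16 (2.28), DUSP7 (1.37), DUSP14 (1.04), DUSP2 (0.941) and DUSP8 (0.492), with the libraries of DUSP14 and DUSP2 overlapping. DUSP16 thus stood 9th of the 10 genes in KD and 6th in NC.

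**Figure D1:**
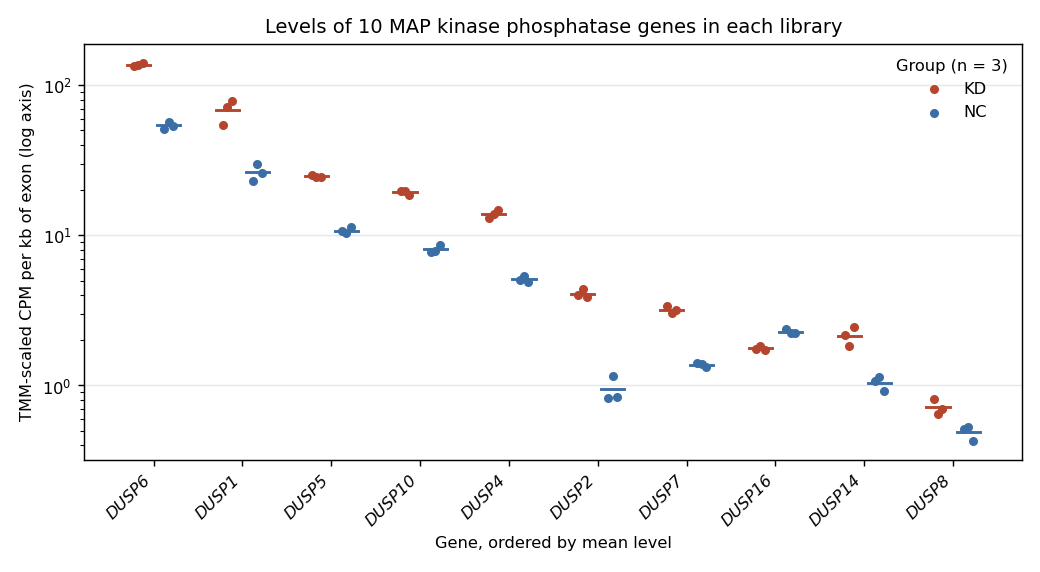
TMM-scaled CPM per kilobase of exon (log axis) for the 10 genes in each library, KD left of NC, with points for libraries and short lines for the means of 3. DUSP6, with possible antisense reads kept, is highest in both groups. On this scale DUSP16 is the 1 gene whose KD points lie below its NC points.

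All 10 genes entered the test and passed it, 9 of them higher and 1, DUSP16, lower in KD on the scale of all tested genes, while on a scale set by the leukocyte markers 3 were higher and 2 lower, and DUSP8 and DUSP14 changed sign. Among all 21905 tested genes 36.2% were called higher in KD and 40.3% lower, 76.5% in all (edgeR quasi-likelihood test, adjusted p under 0.05). A call by itself was therefore common, and all 10 members passing is read against that background. The median log2 fold change of the members was 1.24, against -0.05 for all tested genes and 1.18 for the leukocyte markers. The KD and NC libraries did not overlap for any of the 10 genes, which was also true of 78% of all tested genes, 36.7% of all with KD above NC. With library sizes alone as the scale, 75.7% of genes were called, 28.4% higher and 47.3% lower, and the members again had 9 higher and 1 lower. Log2 fold changes of 8 members were above 1, and a called rise of that size was found for 12.6% of tested genes. The leukocyte markers ran from 0.14 to 1.67, so DUSP2 lay above their range, DUSP16 lay below it and the other 8 members lay within it.

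The direction of some members depends on the scale. With the 60 leukocyte markers as the scale the median over all tested genes moved to -1.22, and 3.77% of genes were called higher and 82.7% lower, 86.4% in all. On that scale DUSP2 (0.95), DUSP4 (0.27) and DUSP6 (0.17) were still higher in KD, while DUSP8 (-0.62) and DUSP16 (-1.54) were lower. The DUSP6 value there keeps reads that an antisense gene may share, and it was not refitted without them on that scale. The log2 fold changes of DUSP1 (0.19), DUSP10 (0.10), DUSP7 (0.04), DUSP5 (0.02) and DUSP14 (-0.13) did not pass there, with edgeR adjusted p of 0.344, 0.125, 0.653, 0.688 and 0.392. The members' median was 0.07 on that scale. The 60 markers themselves had 20 called higher and 17 called lower there, with log2 fold changes from -1.035 to 0.493. DUSP2 lay above that range, DUSP16 lay below it and the other members lay within it. A call on that scale by itself does not place a gene beyond the markers.

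**Figure D2:**
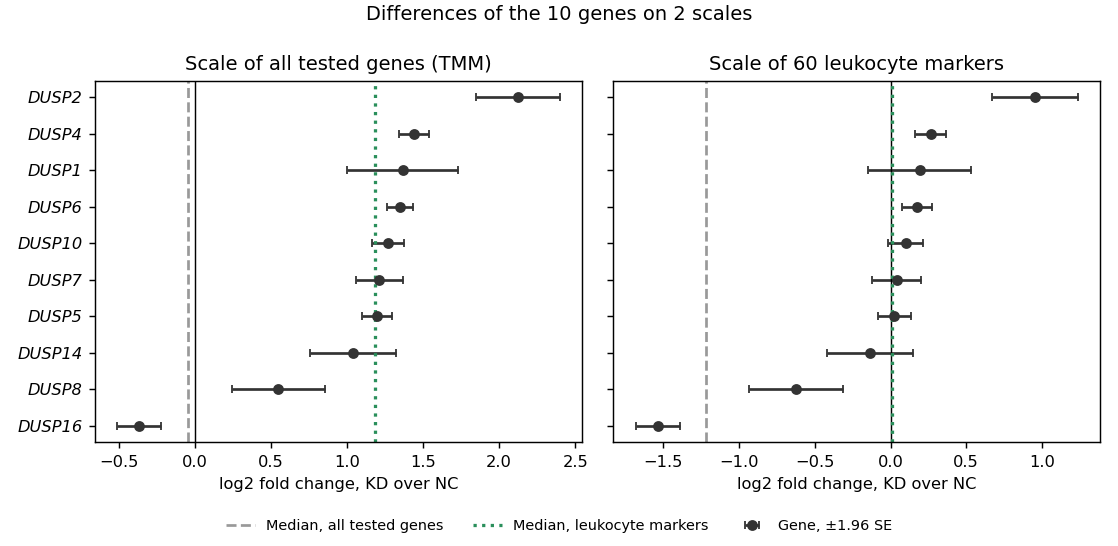
Log2 fold changes, KD over NC, of the 10 genes, on the scale of all tested genes (left) and on the scale of 60 leukocyte markers (right). The 95% intervals are a normal approximation from the SE and are too narrow for genes tested with few degrees of freedom, such as DUSP1. Dashed and dotted lines are the medians of all tested genes (-0.05 and -1.22) and of the leukocyte markers (1.18 and 0.01). On the right only DUSP2, DUSP4 and DUSP6 remain called higher, DUSP6 with possible antisense reads kept. Of the 60 markers themselves, 20 are called higher and 17 lower there.

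The stretches just upstream of the annotated starts are shown for 4 members that cover the span of responses: DUSP2 with the largest rise, DUSP1 as the classical inducible gene, DUSP8 with the smallest rise on the scale of all genes and DUSP16 with the fall. Each is 250 bases, 5′ to 3′ on the gene's own strand, taken from a table of RefSeq promoters on GRCh38.p14 in which 8 of the 10 genes were matched. They lie at chr2:96145441-96145690, chr5:172771196-172771445, chr11:1572272-1572521 and chr12:12562864-12563113, all on the minus strand. Capitals mark matches to the cyclic AMP response element TGACGTCA and to TATAAA.
DUSP2: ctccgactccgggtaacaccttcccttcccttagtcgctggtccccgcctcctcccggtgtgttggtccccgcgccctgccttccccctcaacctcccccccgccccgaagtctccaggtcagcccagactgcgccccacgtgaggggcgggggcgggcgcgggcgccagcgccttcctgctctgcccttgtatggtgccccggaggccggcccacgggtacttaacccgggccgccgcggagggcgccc
DUSP1: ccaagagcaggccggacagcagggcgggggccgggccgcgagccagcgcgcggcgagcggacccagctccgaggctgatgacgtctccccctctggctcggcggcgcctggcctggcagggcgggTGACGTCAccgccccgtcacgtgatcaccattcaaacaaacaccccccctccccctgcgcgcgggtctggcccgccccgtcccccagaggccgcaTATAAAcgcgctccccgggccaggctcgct
DUSP8: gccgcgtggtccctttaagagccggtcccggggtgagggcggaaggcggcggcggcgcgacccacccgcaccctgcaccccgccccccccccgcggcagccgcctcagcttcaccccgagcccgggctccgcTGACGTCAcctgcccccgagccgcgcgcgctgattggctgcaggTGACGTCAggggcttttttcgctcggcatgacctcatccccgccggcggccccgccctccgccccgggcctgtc
DUSP16: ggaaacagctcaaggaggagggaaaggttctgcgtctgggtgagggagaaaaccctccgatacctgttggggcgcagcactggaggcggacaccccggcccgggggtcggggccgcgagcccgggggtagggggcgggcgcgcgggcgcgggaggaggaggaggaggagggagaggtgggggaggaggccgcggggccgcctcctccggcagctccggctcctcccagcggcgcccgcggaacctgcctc
TGACGTCA, the palindrome bound by CREB and ATF factors, was searched on both strands and begins at -125 in DUSP1 and at -118 and -74 in DUSP8, counted from the start. It occurs in 1.65% of the 35116 RefSeq promoters of this length and in 2 of the 8 members. DUSP1 also has TATAAA at -30, a run found in 10.7% of promoters. The AP-1 run TGANTCA (6.57% of promoters), the ETS run CCGGAA (14.5%), the CArG box (1.16%) and the NF-kB site (5.21%) had no match in these windows of the 8 genes. The 2 genes with TGACGTCA had log2 fold changes of 1.37 (DUSP1) and 0.55 (DUSP8) on the scale of all genes, a difference that was not tested, and a match describes these letters only.

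The nuclear inducible phosphatases DUSP1, DUSP2, DUSP4 and DUSP5 were all higher in KD on the scale of all genes, by 2.29-fold to 4.36-fold, and DUSP2 and DUSP4 were also called higher on the leukocyte scale. DUSP1 (chromosome 5, 172768096 to 172771195, minus strand, GRCh38), which inactivates p38, JNK and ERK in the nucleus and restrains cytokine mRNA in macrophages, had 110, 144 and 158 CPM in the KD libraries and 46.7, 60.4 and 52.5 CPM in the NC libraries. The lowest KD library stood well above the highest NC library, but the KD libraries differed more among themselves than for any other member. The log2 fold change was 1.37 (SE 0.185, edgeR adjusted p = 0.00202), and without KD replicate 1, the lowest of its group, it was 1.51.

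DUSP2 (chromosome 2, 96143169 to 96145440, minus strand), a phosphatase mainly of hematopoietic cells, had 306, 332 and 295 counts in the KD libraries and 67, 92 and 73 counts in the NC libraries. All KD counts were more than 3 times the highest NC count. Its log2 fold change of 2.13 (SE 0.141, edgeR adjusted p = 6.93e-13) was the largest of the family, with 0.662% of tested genes above it.

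DUSP4 (chromosome 8, 29333064 to 29350684, minus strand), a nuclear relative of DUSP1 that is induced through ERK, had 94.6, 100 and 107 CPM in KD and 36.6, 39.1 and 35.6 CPM in NC, with a wide gap between the groups. The log2 fold change was 1.44 (SE 0.05, edgeR adjusted p = 1.69e-18). DUSP5 (chromosome 10, 110497907 to 110511533, plus strand), which acts on ERK and holds it in the nucleus, had 63.6, 61.9 and 62.5 CPM in KD and 27.1, 26.2 and 28.7 CPM in NC. Its libraries were the tightest of the family in KD, and its log2 fold change was 1.20 (SE 0.049, edgeR adjusted p = 4.55e-17). DUSP5-DT, the divergent transcript named for this gene in the table and chosen after its values were seen, held 75, 63 and 65 counts in KD and 33, 19 and 26 in NC, without overlap between the groups.

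The cytoplasmic ERK phosphatases DUSP6 and DUSP7 were both higher in KD on the scale of all genes, and on the leukocyte scale DUSP6 was called higher and DUSP7 did not pass. DUSP6 (chromosome 12, 89347235 to 89352501, minus strand), whose transcription is a standard readout of ERK activity, had 515, 528 and 545 CPM in KD and 199, 218 and 208 CPM in NC. Each group was tight and the groups lay far apart, with a log2 fold change of 1.35 (SE 0.044, edgeR adjusted p = 4.66e-19). Of its 3859 exon bases, 1105 (28.6%) also belong to the antisense gene ENSG00000274021 (chromosome 12, plus strand), which held 17492, 17754 and 18236 counts in KD and 7076, 7448 and 7891 in NC. Whether counting used strand is not stated by any label, so reads of these genes cannot be told apart. The antisense count was 0.846 to 0.861 of the DUSP6 count in KD and 0.833 to 0.844 in NC. With all antisense counts taken away, a step added after the data were seen, DUSP6 kept 2814, 2958 and 3313 counts in KD and 1307, 1497 and 1509 in NC. Its log2 fold change was then 1.19 on the scale of all genes (SE 0.0611, edgeR adjusted p = 7.79e-14). The step was not run on the leukocyte scale, so whether DUSP6 would pass there without those reads was not tested. Its place as the most abundant member per length depends on those reads.

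DUSP7 (chromosome 3, 52048919 to 52056571, minus strand), the closest relative of DUSP6 among the 10, had 19.1, 17.1 and 17.9 CPM in KD and 8.03, 7.80 and 7.54 CPM in NC. The groups did not overlap, with a log2 fold change of 1.21 (SE 0.08, edgeR adjusted p = 5.83e-13).

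The phosphatases that prefer JNK and p38 went in different directions on the scale of all genes, where DUSP10 and DUSP8 rose and DUSP16 fell, whereas on the leukocyte scale DUSP8 was below 0 as well and DUSP10 did not pass. DUSP10 (chromosome 1, 221701424 to 221742089, minus strand), which restrains JNK and p38 in innate immune cells, had 56.3, 56.3 and 52.8 CPM in KD and 22, 22.2 and 24.3 CPM in NC. Its log2 fold change of 1.27 (SE 0.054, edgeR adjusted p = 8.64e-17) was close in size to those of DUSP6 and DUSP1.

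DUSP8 (chromosome 11, 1554051 to 1572271, minus strand) was the least abundant member, with 158, 126 and 137 counts in KD and 108, 108 and 96 counts in NC. The groups were apart by a small gap, and the log2 fold change was 0.55 (SE 0.157, edgeR adjusted p = 0.00283), against -0.62 (edgeR adjusted p = 7.06e-04) on the leukocyte scale. A row named as its pseudogene, DUSP8P5, picked after its values were seen, held 104, 125 and 99 counts in KD and 86, 56 and 70 in NC, and reads can be shared between such copies, so the DUSP8 values are uncertain.

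DUSP16 (chromosome 12, 12473282 to 12562863, minus strand), a large phosphatase that shuttles out of the nucleus and acts mainly on JNK, had 12.5, 13.1 and 12.3 CPM in KD and 16.9, 15.9 and 16 CPM in NC. Every KD library was below every NC library, with a log2 fold change of -0.36 (SE 0.073, edgeR adjusted p = 7.86e-05). On the leukocyte scale its log2 fold change was -1.54 (edgeR adjusted p = 4.52e-17), below the median gene there (-1.22).

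DUSP14 (chromosome 17, 37489891 to 37513501, plus strand), an atypical member that lacks the MAP kinase docking domain of the others, had 209, 174 and 235 counts in KD and 110, 114 and 102 in NC. All KD libraries were higher, with a log2 fold change of 1.04 (SE 0.145, edgeR adjusted p = 5.65e-07), which turned to -0.13 without passing on the leukocyte scale. Counts may hold fewer independent fragments than their number, because even numbers made up 67.8% to 70.3% of counts from 1 to 20. The share was 50.2% to 51.4% for counts over 1000, which does not show that large counts are unaffected. Counts of DUSP2, DUSP8 and DUSP14 lie between these ranges, where the share was not measured. Calls were the same for all 10 genes after dividing the counts by 2.

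The make-up of the family within a library does not depend on any scaling between libraries. With possible antisense reads kept in DUSP6, DUSP6 and DUSP1 led it in both groups. Expressed as a share of the summed counts per kilobase of the 10 genes, DUSP6 made up 51.7%, 49.2% and 48.8% in KD and 49.3%, 48.5% and 48.7% in NC. DUSP1 made up 21.1%, 25.7% and 27.0% in KD and 22.2%, 25.8% and 23.6% in NC. Neither share separated the groups, with differences, KD minus NC, of 1.06 points for DUSP6 (exact permutation p = 0.40, two-sided) and 0.755 points for DUSP1 (exact permutation p = 0.80). The DUSP1 difference changed sign without KD replicate 3 (-0.448 points) and without NC replicate 1 (-0.0632 points). With the antisense counts taken away, over the 2754 exon bases that are not shared, DUSP6 made up 16.2% to 17.2% in KD and 17.5% to 18.1% in NC, a difference of -0.916 points. The shares of all other members and of the classes would then be larger, and their values are given only with those counts kept.

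With the antisense counts kept in DUSP6, shares of 4 members did not overlap between the groups. DUSP16 made up 0.678%, 0.658% and 0.596% of the family in KD and 2.27%, 1.91% and 2.03% in NC, the largest such difference at -1.42 points. The DUSP2 share was 1.56%, 1.58% and 1.34% in KD and 0.789%, 0.998% and 0.757% in NC. DUSP4 averaged 5.02% ± 0.0625 in KD and 4.62% ± 0.193 in NC, and DUSP8 0.262% ± 0.0441 in KD and 0.446% ± 0.0543 in NC (SD, n = 3 each). For each of the 4 the exact permutation p was 0.10, the smallest that 3 against 3 libraries allow, and 0.25 after adjustment over the 10 genes. By class, JNK and p38 phosphatases took 8.70%, 8.05% and 7.29% of the family in KD and 10.2%, 9.10% and 10.2% in NC, and the nuclear class took 37.4% to 42.0% in KD and 38.1% to 40.2% in NC.

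**Figure D3:**
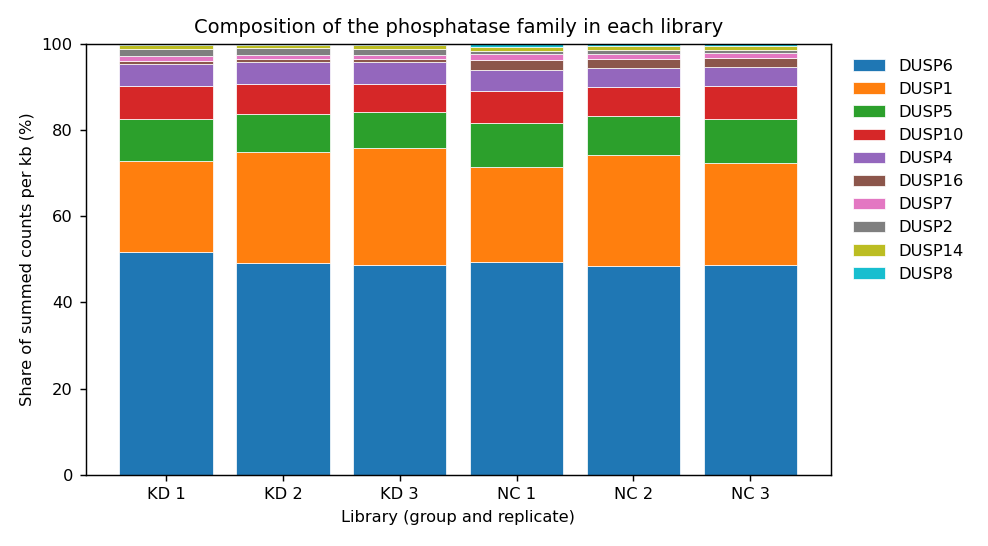
Share of each of the 10 genes in the summed counts per kilobase of exon (percent), 1 stacked bar for each library, the 3 KD bars left of the 3 NC bars. Possible antisense reads are kept in DUSP6. DUSP6 and DUSP1 fill most of every bar, and the DUSP16 segment is thinner in KD (0.596% to 0.678%) than in NC (1.91% to 2.27%).

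The kinases that the family acts on, with their activators, had a lower median than the phosphatases. Of 17 MAP kinases and MAP2 kinases, all tested, 9 were higher, 4 lower and 4 did not pass on the scale of all genes, with a median log2 fold change of 0.23. Measured against the leukocyte markers 0 were higher and 15 lower. Among all tested genes 36.2% were higher and 40.3% lower on the scale of all genes, and 3.77% and 82.7% on the leukocyte scale. MAP2K1 (MEK1), which activates ERK, rose by 0.66, MAPK14 (p38 alpha) by 0.71 and MAPK10, a JNK gene, by 1.27 on the scale of all genes, and on the leukocyte scale MAP2K1 and MAPK14 were below 0 and MAPK10 did not pass. MAP2K4, an activator of JNK and p38, fell by 1.56, to 5.62 ± 0.421 CPM in KD, against 16.6 ± 1.28 CPM in NC (SD, n = 3 each), and was lower on both scales. Of 20 tested RAF and MAP3 kinases 15 were higher and 3 lower (median 0.40), against 1 and 17 by the leukocyte scale. These counts are read beside the same shares of all tested genes. MAP3K5, or ASK1, rose by 1.28, the kinase TAOK3 by 1.32, MAP3K20 (ZAK) by 1.04 and MAP3K2 by 0.95 on the scale of all genes, whereas on the leukocyte scale TAOK3 was higher, MAP3K5 did not pass and the other two were lower.

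Of 18 tested genes that report or restrain ERK signalling, 10 were higher and 8 lower (median 0.90), beside 36.2% higher and 40.3% lower among all tested genes. By the leukocyte scale 3 were higher and 9 lower, beside 3.77% and 82.7% of all tested genes. HBEGF, an EGF receptor ligand, stood at 380 ± 9.68 CPM in KD and 111 ± 1.53 CPM in NC. PHLDA1 stood at 398 ± 14.3 CPM in KD and 146 ± 4.51 CPM in NC, and SPRY2, a Sprouty inhibitor of receptor signalling, at 206 ± 5.71 CPM in KD and 86.2 ± 2.44 CPM in NC. The rises of HBEGF (log2 fold change 1.77) and PHLDA1 (1.45) passed on the leukocyte scale too, and that of SPRY2 (1.26) did not. EGR1, an immediate-early ERK target, went the other way on both scales, at 11.5 ± 0.480 CPM in KD and 57.3 ± 1.90 CPM in NC (log2 fold change -2.32). The other 7 lower genes, named after their values were seen, were EPHA2, ETV4, ETV1, IL17RD, EPHA4, SPRY1 and ETV5. In the same libraries most of the tested neuronal and epithelial markers were lower in KD, as given above.

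Effectors downstream of the MAP kinases had 12 higher and 3 lower of 16 tested (median 0.67), beside 36.2% higher and 40.3% lower among all tested genes. By the leukocyte scale 1 was higher and 14 lower, beside 3.77% and 82.7% of all tested genes. The ribosomal S6 kinases RPS6KA1 (1.38), RPS6KA3 (0.89) and RPS6KA2 (0.80), targets of ERK, and the p38 target MAPKAPK2 (1.11) rose, where the brackets hold log2 fold changes on the scale of all genes. On the leukocyte scale RPS6KA1 was still higher, RPS6KA2 and RPS6KA3 were lower and MAPKAPK2 did not pass.

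Of 13 tested dual-specificity phosphatases outside the 10 genes 5 were higher, 5 lower and 3 did not pass (median 0.10). These counts are near the background of 36.2% higher and 40.3% lower. By the leukocyte scale 0 were higher and 11 lower, beside 3.77% and 82.7% of all tested genes. DUSP22, an atypical phosphatase, was at 2.48 ± 0.308 CPM in KD and 11.6 ± 0.618 CPM in NC, a log2 fold change of -2.22. DUSP9, the third cytoplasmic ERK phosphatase beside DUSP6 and DUSP7, held 28, 10 and 14 counts in KD and 132, 130 and 214 counts in NC. The log2 fold change of DUSP9 was -3.06 (SE 0.271, edgeR adjusted p = 4.36e-10), so the direction was opposite to that of DUSP6 and DUSP7 on the scale of all genes. DUSP19 fell by 1.97 on the log2 scale. DUSP23 rose by 1.37 and did not pass on the leukocyte scale. Among 9 other phosphatases of MAP kinases 5 were higher and 3 lower (median 0.34), against 1 and 7 by the leukocyte scale. The same shares of all tested genes stand beside these counts. PTPN7, a tyrosine phosphatase of hematopoietic cells that acts on ERK and p38, rose by 1.36 and was higher on both scales. PTPN5, its relative of the nervous system, had 0 counts in KD and 48, 49 and 76 counts in NC. The catalytic subunits PPP2CA (0.49) and PPP2CB (1.08) of protein phosphatase 2A rose on the scale of all genes, whereas on the leukocyte scale PPP2CA was lower and PPP2CB did not pass.

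**Figure D4:**
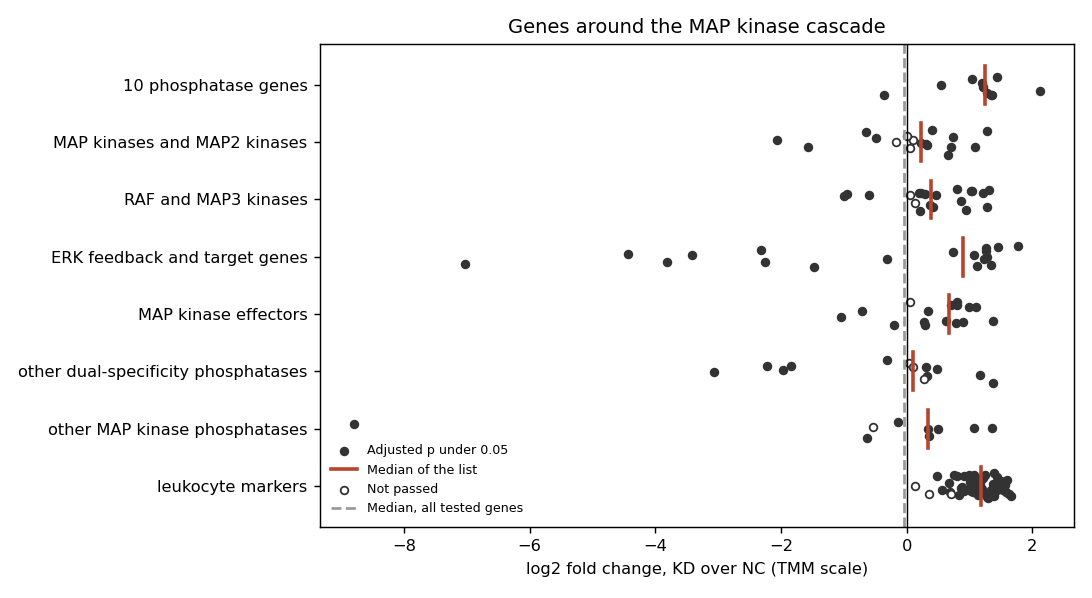
Log2 fold changes, KD over NC, on the scale of all tested genes for the 10 phosphatase genes, 6 lists of genes around the MAP kinase cascade and the leukocyte markers, with filled points past the test and bars at the list medians. The phosphatase median (1.24) lies near that of the leukocyte markers (1.18). On the leukocyte scale, which is not drawn, most of the 93 tested genes of the 6 lists are lower, as are 82.7% of all tested genes.

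Among 93 tested genes of the pathway lists, those with patterns closest to the 4 most abundant members were found by the root mean square distance of centred log2(CPM + 1) values over the 6 libraries. RPS6KA1 lay closest to DUSP6 (distance 0.025, against a median of 0.518 over the 93 genes), CCND1, the ERK-induced cyclin D1, to DUSP1 (0.134), SPRY4, another Sprouty gene, to DUSP5 (0.040) and MAP3K5 to DUSP10 (0.050). Possible antisense reads were kept in DUSP6 here, and its nearest gene without them was not sought. Since the libraries form 2 groups, a small distance mostly reflects a like difference between KD and NC.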

How the data were processed

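THP-1 RNA after PMA treatment was sequenced on a DNBSEQ-T7 instrument, per the labels' protocols. The submitters' processing notes name fastp version 0.23.0 and GRCh38. No aligner, counter, annotation release or strand setting is stated there. What the authors deposited is a table of raw counts for each gene with its exon coordinates and exon length. Libraries of a group were not duplicates of each other, with a chi-square over its degrees of freedom of 3.24 to 6.46.

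The whole table was tested with edgeR 4.0.16 (R 4.3.3), using its robust quasi-likelihood fit on TMM-normalized libraries after filterByExpr, and 21905 genes remained. Calls are two-sided at 0.05 after Benjamini-Hochberg adjustment. Each SE comes from the log2 fold change and the F statistic of its gene, and the common biological coefficient of variation was 0.0499. CPM are counts over the TMM-scaled total of the library, divided by exon length in kilobases where genes are compared. The leukocyte scale takes its factors from the 60 leukocyte markers alone. Family shares were compared by the exact permutation test over libraries (scipy 1.17.1, Python 3.11.15).

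Genes named are the 10 members, METTL1, up to 4 genes of each list with the smallest p, the nearest pattern of the 4 most abundant members and the 3 most abundant markers per length. The text marks other genes, such as those at 0 counts, as picked with their values in view, apart from the antisense gene, which was found by its exon overlap. The members, lists, alternatives and naming rule were chosen with earlier results of these data known. DUSP13A and DUSP13B of the list of other dual-specificity phosphatases had no row under those names. A row named DUSP13, which is not in the list counts, held 37, 37 and 20 counts in KD and 12, 8 and 5 in NC.

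The alternatives tried were the leukocyte scale, library sizes alone, size factors from DESeq2, the DESeq2 1.42.0 test, no filter, a filter at 1 CPM, limma-voom (limma 3.58.1), a replicate block, counts divided by 2, shares without division by length and leaving out each library. The removal of the antisense counts from DUSP6 was added after the data were seen. The edgeR steps were tested on simulated counts in which few genes changed, as many up as down. That could not test the scaling between groups in which most genes are called, as here.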

Additional observations from a re-analysis of the deposited data

How the results depend on the processing

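The leukocyte scale was the one alternative run that changed calls of the members. On it 3 members were higher and 2 lower in KD, against 826 of all genes higher and 18108 lower, so that 4.4% of all calls were higher in place of 47.3%. DUSP8 turned to -0.62 and DUSP14 to -0.13, and DUSP1, DUSP5, DUSP7 and DUSP10 no longer passed. The removal of antisense counts from DUSP6 was not run on that scale. The counts of higher and lower genes there were 0 and 15 for MAP kinases and MAP2 kinases, 1 and 17 for RAF and MAP3 kinases, 3 and 9 for ERK feedback and target genes, 1 and 14 for effectors, 0 and 11 for other dual-specificity phosphatases, and 1 and 7 for other phosphatases of MAP kinases. Under every other setting run, 9 members were higher and 1 lower, and each pathway list count stayed within 1.5 times its value. Scaled by library sizes alone, the calls over all genes came to 6220 higher and 10367 lower (37.5% higher), the median of all genes was -0.23, the RAF and MAP3 kinases had 11 higher, the MAP kinases and MAP2 kinases had 7 higher and 6 lower, and DUSP8 was at 0.36 (edgeR adjusted p = 0.0442).

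Leaving out each library moved the log2 fold change of DUSP8 between 0.46 and 0.63 and that of DUSP1 between 1.26 and 1.51. The DUSP1 share difference ran from -0.448 to 2.51 points and the DUSP10 share difference from -0.513 to 0.112 points, so neither had a stable sign, and the DUSP6 share difference ran from 0.149 to 1.6 points. With the antisense counts removed and the length set to the 2754 bases that are not shared it was -0.916 points, and the cause was not tested. With the filter at 1 CPM, 1 neuronal or epithelial marker was called higher in place of 2.

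Over all tested genes replicate numbers showed no pairing of the samples: deviations of same-numbered KD and NC libraries correlated at 0.036, 0.026 and -0.079. With 3 libraries in each group such a correlation cannot decide on pairing for single genes. With the replicate block 7763 genes were higher and 8665 lower, and 9 members were higher and 1 lower. The SE of DUSP1 was then 0.0571, against 0.185 without the block. Depth limits DUSP2, DUSP8 and DUSP14 most, with 67 to 332 counts per library.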
